A study of Homo sapiens with 26 samples.

Results

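The genes of interest here were the G1 cyclins and the CDK inhibitors, 10 genes found by symbol among the 41078 genes of the deposited expression table. They were the D-type cyclins CCND1, CCND2 and CCND3, the E-type cyclins CCNE1 and CCNE2, the Cip/Kip inhibitors CDKN1A, CDKN1B and CDKN1C, and the INK4 inhibitors CDKN2C and CDKN2D. The study established single cell-derived cell lines (SCDCLs) by limiting dilution from BxPC3 and Panc-1, both established lines of pancreatic ductal adenocarcinoma, to ask how clones of one tumor cell population differ in their response to gemcitabine. Messenger RNA of 26 SCDCLs was sequenced once each, 12 labelled BxPC3 and 14 labelled Panc1. Each SCDCL is 1 clone with 1 library, so every spread given here is between clones and p-values measure only that spread. The labels name gemcitabine as the treatment of all 26 libraries, whereas the methods describe the drug only for separate viability assays and RNA from clones grown to near confluence without it. By the methods the libraries are from clones not given the drug, although no library is labelled as untreated. No parental library was analysed here, and the response of each clone was not analysed here.

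In G1, D-type cyclins bind CDK4 and CDK6, and E-type cyclins bind CDK2. The active kinases phosphorylate the retinoblastoma protein and release E2F transcription factors, which carries the cell into S phase. INK4 proteins bind CDK4 and CDK6 and keep them from the D-type cyclins, while Cip/Kip proteins bind cyclin-CDK complexes, with CDK2 complexes as their main targets for inhibition. Loss of the INK4 gene CDKN2A is among the most frequent lesions of pancreatic cancer, and both parental lines lack it.

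Levels are given as TPM, a transcript share scaled for both transcript length and library size, so levels can be compared between genes. The libraries held between 27035724 and 34945608 estimated counts. The labels were checked with SMAD4 (ENSG00000141646), a gene that Panc-1 carries and BxPC3 has lost by deletion. It was at 0 to 0.0440 TPM in 12 libraries and at 28.1 to 52.2 TPM in the other 14, and this went against the label of 14 libraries, 7 labelled BxPC3 with SMAD4 and 7 labelled Panc1 without. The 12 libraries with SMAD4 under 1 TPM comprised 5 labelled BxPC3 and 7 labelled Panc1, and the 14 with more comprised 7 of each label. Groups are therefore called by their label only for tests, and the SMAD4 classes, which were cut from a measured value, are described without a test. The classes of 12 and 14 have the sizes that the labels give for BxPC3 and Panc1. They may thus be the lines themselves under exchanged labels, which was not tested. A difference between the classes cannot be told apart from one between the lines, and is not tied to SMAD4 itself. The epithelial markers CDH1 and EPCAM were at 90.8 to 198 and 239 to 424 TPM in the 12, and at 0.338 to 7.74 and 7.49 to 25.5 TPM in the 14. Of the 5 epithelial markers, KRT7 was also higher in the 12 without overlap, while KRT19 and KRT8 overlapped. KRT8 was mostly lower in the 12, at 298 to 781 against 704 to 4005 TPM, with 13 of the 14 above the highest of the 12. Of the 4 mesenchymal markers, VIM and ZEB1 were higher in the 14 without overlap, CDH2 overlapped, and FN1 was higher in the 12, at 8.39 to 66.2 against 0.787 to 3.20 TPM. VIM was at 1.42 to 73.2 TPM in the 12 and 3047 to 4526 TPM in the 14. The summed leukocyte markers reached at most 0.931 TPM and the endothelial ones 6.13 TPM, while the fibroblast markers, nearly all of it COL1A1, summed to 2.06 to 38.7 TPM.

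All 10 genes passed the filter on low counts. CDKN2C was the only one whose libraries did not overlap between the SMAD4 classes, 1 of 10, where 30.0% of all 16008 genes tested did not overlap. The share was 15.4% for genes higher with SMAD4 and 14.6% for genes lower with it. The medians of CDKN2C and CDKN1A lay over 1 apart on the log2(TPM + 1) scale, at 2.29 and -1.15 as SMAD4-expressing minus SMAD4-lacking, 2 of 10 where 30.8% of all genes did. On that scale the median difference between the classes was -0.02 over the 10 genes and 0.01 over all genes tested. Fewer cells in G1 and less RNA per cell cannot be told apart in such bulk RNA.

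**Figure D1:**
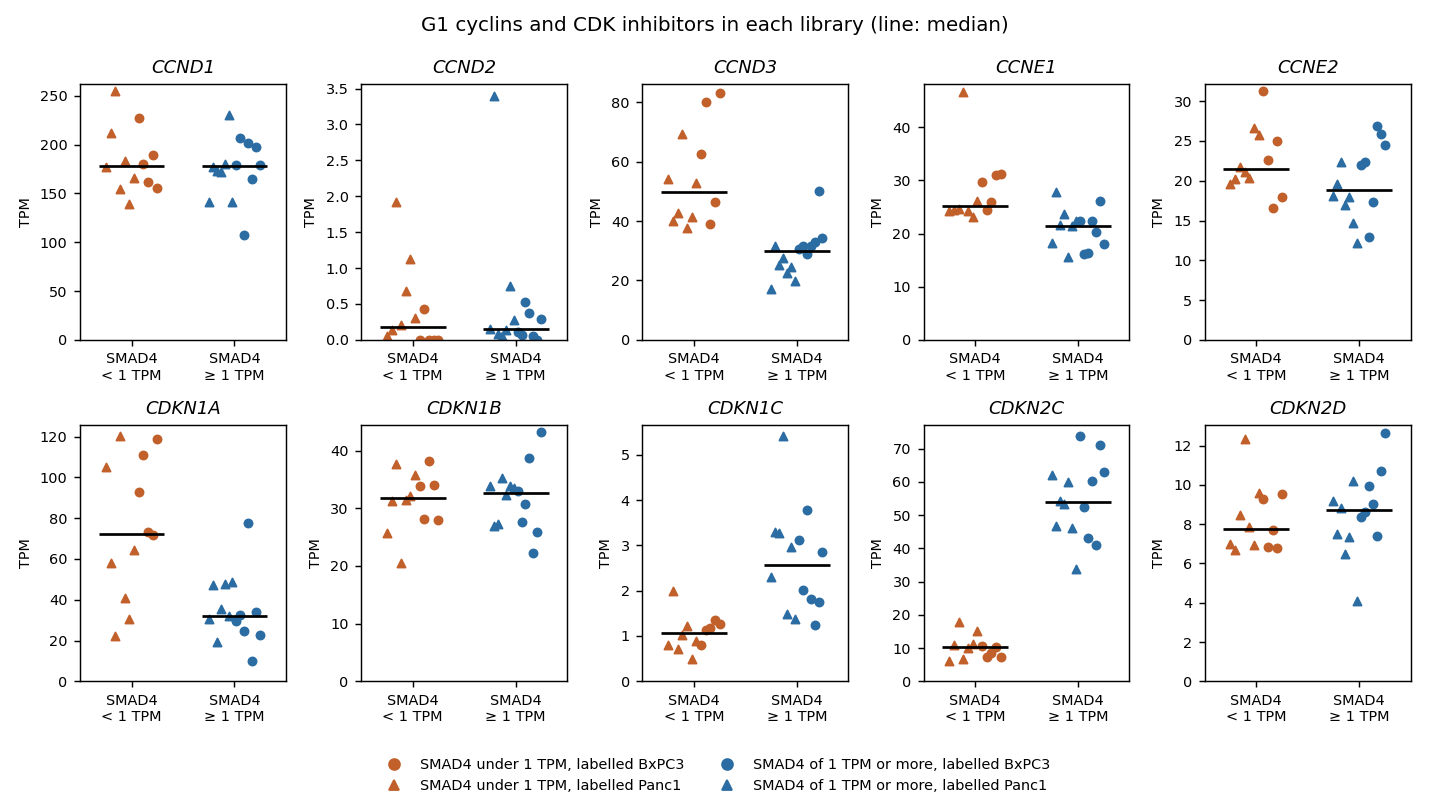
TPM (y axis, from 0) of each of the 10 genes in the 26 libraries, split by SMAD4 class (x axis), with circles for libraries labelled BxPC3, triangles for Panc1 and a line at the class median. CDKN2C lies at 6.07 to 17.95 TPM in the 12 libraries with SMAD4 under 1 TPM and at 33.7 to 73.7 TPM in the 14 others, while the remaining 9 genes overlap.

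Promoter windows of 300 bases, 250 before and 50 after an annotated start, were available from RefSeq (GRCh38.p14) for 6 of the 10 genes, as 10 windows. None was matched for CCND1, CCND2, CCNE2 and CDKN1C. The 3 windows of CDKN2C are shown because this gene separated the SMAD4 classes, and that of CDKN1A because it had the widest spread among clones of one class on the log2(TPM + 1) scale. Capitals mark matches to the GC box GGGCGG or its complement CCGCCC and to CCAAT or ATTGG, and neighbouring GC boxes that share bases run together.
CDKN2C, chr1:50960495-50960794, plus strand: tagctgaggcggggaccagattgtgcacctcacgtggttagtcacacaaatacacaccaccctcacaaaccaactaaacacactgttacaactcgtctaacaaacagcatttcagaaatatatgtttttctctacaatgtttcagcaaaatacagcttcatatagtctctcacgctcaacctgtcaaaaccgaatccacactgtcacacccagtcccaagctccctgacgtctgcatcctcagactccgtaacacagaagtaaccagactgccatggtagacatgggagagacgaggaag
CDKN2C, chr1:50968456-50968755, plus strand: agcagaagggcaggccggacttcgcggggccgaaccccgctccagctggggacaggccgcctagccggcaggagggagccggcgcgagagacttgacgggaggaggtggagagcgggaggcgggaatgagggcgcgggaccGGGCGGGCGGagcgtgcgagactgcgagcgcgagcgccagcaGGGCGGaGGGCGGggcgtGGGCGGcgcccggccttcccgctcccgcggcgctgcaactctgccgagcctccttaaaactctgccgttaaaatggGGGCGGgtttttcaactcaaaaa
CDKN2C, chr1:50969995-50970294, plus strand: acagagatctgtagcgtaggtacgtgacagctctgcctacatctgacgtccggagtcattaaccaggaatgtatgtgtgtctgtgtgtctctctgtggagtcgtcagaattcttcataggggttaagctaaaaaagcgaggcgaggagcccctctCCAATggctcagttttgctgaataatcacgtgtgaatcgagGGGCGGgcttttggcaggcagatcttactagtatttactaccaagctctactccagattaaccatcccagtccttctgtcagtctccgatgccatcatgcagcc
CDKN1A, chr6:36678464-36678763, plus strand: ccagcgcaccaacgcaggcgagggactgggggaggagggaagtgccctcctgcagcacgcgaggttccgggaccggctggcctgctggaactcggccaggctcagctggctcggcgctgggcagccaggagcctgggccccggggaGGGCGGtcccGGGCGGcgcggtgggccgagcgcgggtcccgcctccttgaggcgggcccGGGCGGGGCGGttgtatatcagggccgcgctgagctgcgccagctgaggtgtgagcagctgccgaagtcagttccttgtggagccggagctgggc

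The first CDKN2C window held none of the motifs searched, the second held 6 GC boxes, and the third held 1 CCAAT and 1 GC box. The CDKN1A window held 4 GC boxes. A GC box was found in 45% and CCAAT in 34.6% of all 35116 promoter windows of this length, on either strand. The E2F motif TTTNGCGC (or GCGCNAAA) occurred in 1.79% and the cell cycle homology region TTTGAA (or TTCAAA) in 15.2% of all windows, and neither matched these letters in any of the 10 windows. The gene-level values do not tell which start was used in a library.

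Among the D-type cyclins, CCND1 was the most abundant in every library and CCND3 the one that differed most between the SMAD4 classes, while CCND2 was close to or at 0. CCND1 (ENSG00000110092, GRCh38 chromosome 11, 69641156 to 69654474), the cyclin D most often amplified in carcinomas, had a lowest, median and highest level of 140, 178 and 255 TPM in the 12 libraries without SMAD4. In the 14 libraries with SMAD4 it was at 107, 178 and 231 TPM. The medians lay 1.00-fold apart and the classes overlapped over most of their range. The highest level was in library 3 and the lowest in library 18.

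CCND3 (ENSG00000112576, chromosome 6, 41934934 to 42050357), a cyclin D best known for its role in lymphocytes, was at 37.7, 49.7 and 83.0 TPM in the libraries without SMAD4. With SMAD4 it was at 16.97, 29.9 and 50.2 TPM. The median was 1.66-fold higher without SMAD4, and 13 of the 14 libraries with SMAD4 lay below the lowest of the 12. The exception was library 22, labelled BxPC3, at 50.2 TPM. Within the libraries labelled Panc1 the ranges of 37.7 to 69.5 and 16.97 to 31.6 TPM did not overlap, as was the case for 41.9% of all genes there. Within those labelled BxPC3, the ranges were 38.9 to 83.0 and 29.1 to 50.2 TPM and overlapped.

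CCND2 (ENSG00000118971, chromosome 12, 4269771 to 4305353), a cyclin D of lymphoid, neural and gonadal cells among others, was at 0, 0.174 and 1.92 TPM without SMAD4 and at 0, 0.145 and 3.40 TPM with it. It had 0 counts in 5 libraries, 4 of the 5 libraries labelled BxPC3 without SMAD4 and library 22. A count of 0 allows up to 3 counts, which is 0.0858 to 0.111 CPM at these depths, by counting error alone. CPM is not scaled for length, so this floor cannot be set against the TPM levels. In library 20, for example, 4.96 estimated counts of CCND2 were 0.0503 TPM. Above 1 TPM it was found in libraries 3, 6 and 9, all labelled Panc1, at 1.92, 1.12 and 3.40 TPM.

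The D-type cyclins summed to 182, 234 and 300 TPM (lowest, median and highest) without SMAD4 and to 137, 207 and 256 TPM with it. CCND1 made up 65.3% to 85.1% of that sum in the first class and 78.4% to 90.1% in the second, with medians of 77.5% and 86.3%. CCND3 held most of the rest, with medians of 22.2% and 13.6%. The D-type mixture thus differed in its CCND3 share between the classes, and the ranges of that share overlapped.

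The E-type cyclins stood at similar levels to each other and overlapped between the classes. CCNE1 (ENSG00000105173, chromosome 19, 29811991 to 29824312), which is amplified in several carcinomas, was at 23.02, 25.2 and 46.7 TPM without SMAD4 and at 15.6, 21.5 and 27.8 TPM with it. The medians differed 1.17-fold, and 11 of the 14 libraries with SMAD4 were below the lowest of the 12. Library 4, labelled Panc1, stood apart from the other libraries without SMAD4, which reached at most 31.2 TPM.

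CCNE2 (ENSG00000175305, chromosome 8, 94879770 to 94896678), the second activator of CDK2 and an E2F target, was at 16.6, 21.4 and 31.3 TPM without SMAD4. With SMAD4 it was at 12.2, 18.8 and 26.9 TPM. Only 3 libraries with SMAD4 fell below the lowest of the 12. CCNE1 made up 46.4% to 68.9% of the summed E-type level without SMAD4 and 42.1% to 64.7% with it.

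**Figure D2:**
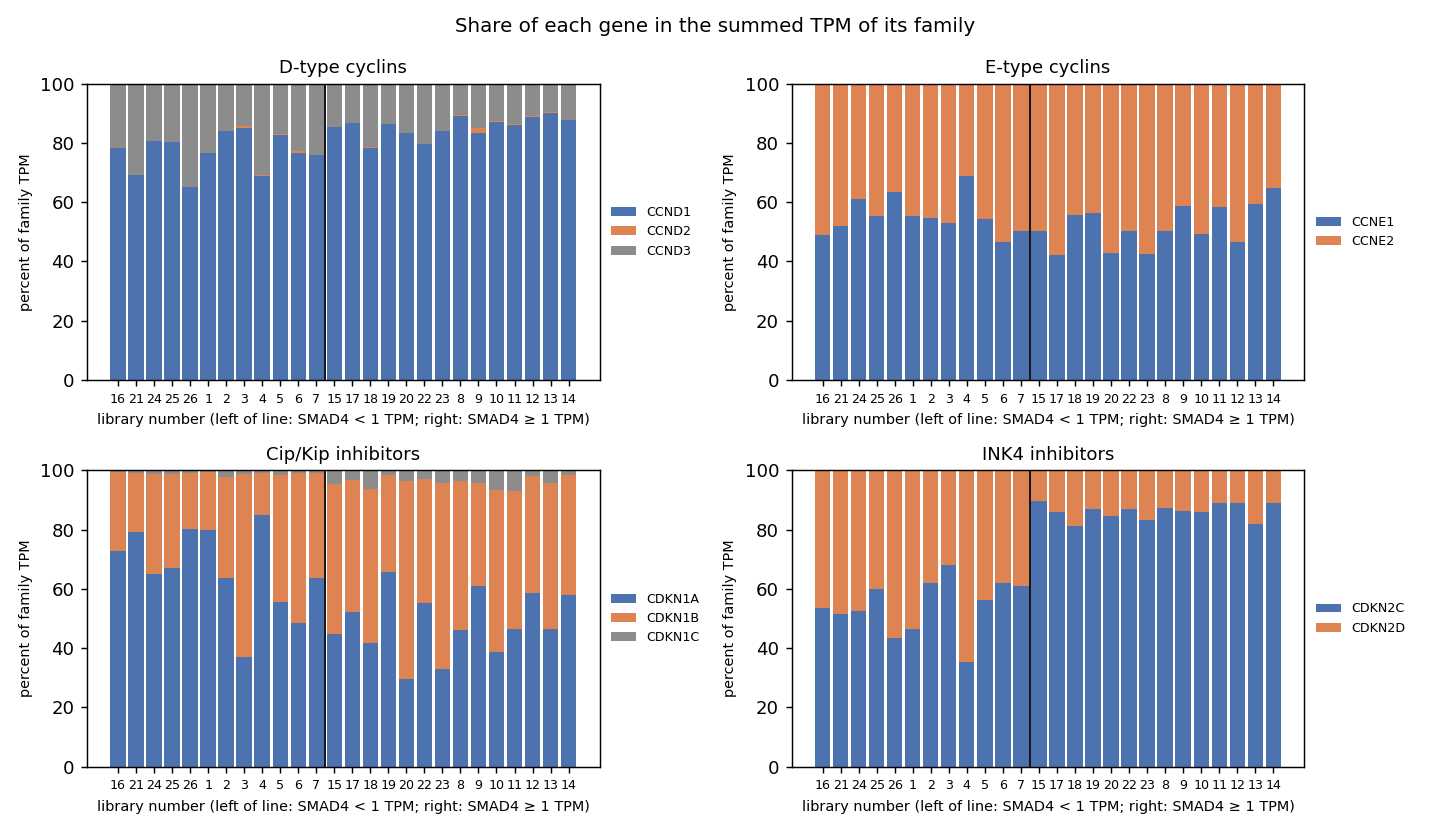
Percent of the summed TPM of each family (y axis) held by each of its genes in the 26 libraries (x axis, library number), with the 12 libraries with SMAD4 under 1 TPM left of the line. CDKN2C holds 35.4% to 67.9% of the INK4 sum left of the line and 81.3% to 89.8% right of it.

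Of the Cip/Kip inhibitors, CDKN1A was higher and CDKN1C lower in most libraries without SMAD4, and CDKN1B was alike in median. CDKN1A (ENSG00000124762, chromosome 6, 36676460 to 36687337) encodes p21, which TGF-beta signalling can induce. It was at 22.4, 72.4 and 120 TPM without SMAD4 and at 9.84, 32.1 and 77.6 TPM with it. The median was 2.26-fold higher without SMAD4, but only 5 of those 12 libraries exceeded the highest with SMAD4, library 19.

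CDKN1B (ENSG00000111276, chromosome 12, 12685498 to 12722369) encodes p27, which is controlled largely through protein turnover. Its levels were 20.5, 31.7 and 38.2 TPM without SMAD4 and 22.3, 32.7 and 43.3 TPM with it, a 1.03-fold difference in median. CDKN1C (ENSG00000129757, chromosome 11, 2883213 to 2885775) encodes p57 and is imprinted. It was low in both classes, at 0.503, 1.07 and 1.995 TPM without SMAD4 and 1.24, 2.58 and 5.41 TPM with it. The median was 2.41-fold higher with SMAD4, and 9 of the 14 libraries lay above the highest of the 12.

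The summed Cip/Kip level was 60.8, 110 and 148 TPM without SMAD4 and 33.4, 67.8 and 118 TPM with it. CDKN1A held a median of 66.0% of the sum in the first class and 46.5% in the second. CDKN1B held 32.9% and 47.8%, and CDKN1C 0.861% and 3.93%. In single clones the order changed. CDKN1A was 84.8% of the sum in library 4 and 36.9% in library 3, both labelled Panc1 and both without SMAD4.

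Of the INK4 inhibitors, CDKN2C separated the SMAD4 classes and CDKN2D did not. CDKN2C (ENSG00000123080, chromosome 1, 50960745 to 50974634) encodes p18, an inhibitor of CDK4 and CDK6. It was at 6.07, 10.2 and 17.95 TPM in the 12 libraries without SMAD4 and at 33.7, 53.8 and 73.7 TPM in the 14 with it. The median was 5.29-fold higher with SMAD4 and no library of one class reached the other. Since the classes did not overlap over all libraries, they could not overlap within a label either. The ranges by label are given as levels only. The libraries labelled BxPC3 were at 7.25 to 10.8 TPM without SMAD4 and at 41.0 to 73.7 TPM with it, and those labelled Panc1 at 6.07 to 17.95 and 33.7 to 62.2 TPM. Among all genes, 41.1% did not overlap within the first label and 41.9% within the second.

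CDKN2D (ENSG00000129355, chromosome 19, 10566460 to 10569059), which encodes p19, was at 6.68, 7.77 and 12.3 TPM without SMAD4. With SMAD4 it was at 4.11, 8.73 and 12.6 TPM. The INK4 sum was 13.1 to 26.4 TPM in the first class and 37.9 to 82.0 TPM in the second, and CDKN2C supplied 55.0% of it in the median library of the first and 86.6% in that of the second. CDKN2A (ENSG00000147889, chromosome 9, 21967752 to 21995301), the INK4 gene that both lines lack, had 0 estimated counts in all 26 libraries. Its neighbour CDKN2B, another INK4 gene, had 0 in 24 and at most 1.00 estimated count in the other 2. MTAP, which lies beside them and is often lost with them, was at 0.182 to 4.03 TPM in 25 libraries and at 21.8 TPM in library 23, labelled BxPC3 and with SMAD4. CDKN2A was at 0 in that library too.

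Ordered by median over all 26 libraries, the members ran from CCND1 at 178 TPM through CDKN1A at 43.9, CDKN2C at 37.4, CCND3 at 35.9, CDKN1B at 32.2, CCNE1 at 23.9, CCNE2 at 20.7 and CDKN2D at 8.41 to CDKN1C at 1.43 and CCND2 at 0.145 TPM. CCND1 was the highest of the 10 in every library. Each of the other genes overlapped its neighbours in this order across the libraries, with CDKN1A, CDKN2C, CCND3, CDKN1B, CCNE1 and CCNE2 running through each other over most of their ranges.

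The effective length of a gene's transcripts, which moves with the mixture of isoforms, did not separate the classes for any of the 10 genes, against 3.53% of all genes. It came nearest for CDKN2D, with 1096 to 1217 bases without SMAD4 and 1209 to 1320 bases with it. For CCND3 the medians were 1622 and 1898 bases, and for CCND1 2701 and 2940 bases, with overlap in both. For CDKN2C the medians were 1848 and 1849 bases. CCND2 ranged widely, from 762 to 6025 bases without SMAD4 and from 4364 to 6065 bases with it. Its libraries with 0 counts all hold the same 4364 bases, which is no measured length. Library 3, at 1.92 TPM of CCND2, was at 1202 bases.

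Other genes of the G1 machinery were taken from fixed lists. Of 7 kinases and activators, CDK6 did not overlap between the classes. CDK6, a partner of the D-type cyclins, was at 25.8, 32.6 and 55.4 TPM without SMAD4 and at 0.784, 9.91 and 19.6 TPM with it. CDK4, the other partner, was at 139 to 221 and 154 to 240 TPM, and CDK2, the partner of the E-type cyclins, at 48.1 to 74.7 and 39.6 to 68.3 TPM. Both overlapped. Since neither CDKN2C nor CDK6 overlapped between the classes, the libraries with high CDKN2C had to be those with low CDK6. Their relation within a class is not given here.

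Of 9 genes of the RB and E2F list, E2F4 was higher without SMAD4, at 73.3 to 111 against 40.4 to 58.9 TPM, and E2F5 was higher with it, at 14.05 to 24.4 against 4.14 to 9.35 TPM. Both are E2F factors known mainly as repressors. RB1 overlapped, at 33.1 to 67.4 and 17.5 to 46.8 TPM. Of 11 genes for turnover of cyclins and inhibitors, SKP2 and FBXO4 were higher without SMAD4. SKP2, the receptor that marks p27 for destruction, was at 42.1, 62.1 and 79.6 TPM without SMAD4 and at 7.72, 10.7 and 16.7 TPM with it. The CDKN1B levels above, which overlapped, are of RNA and do not show p27 protein. FBXO4, an F-box protein implicated in cyclin D1 turnover, was at 17.03 to 33.8 and 3.87 to 15.01 TPM.

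Of 6 transcription factors known to act on these genes, MYC and FOXO1 were higher without SMAD4 and KLF6 was lower. MYC, which represses CDKN1A, was at 92.9 to 244 against 42.9 to 76.0 TPM, and KLF6, which activates it, at 10.2 to 23.9 against 66.7 to 138 TPM. FOXO1, an activator of CDKN1B, was at 7.39 to 20.7 against 0.0937 to 5.05 TPM. Of 12 proliferation genes, BUB1 and RRM2 were higher with SMAD4, MCM2 was lower, and 9 overlapped. The counts of 1 of 7, 2 of 9, 2 of 11, 3 of 6 and 3 of 12 stand against the 30.0% of all genes.

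**Figure D3:**
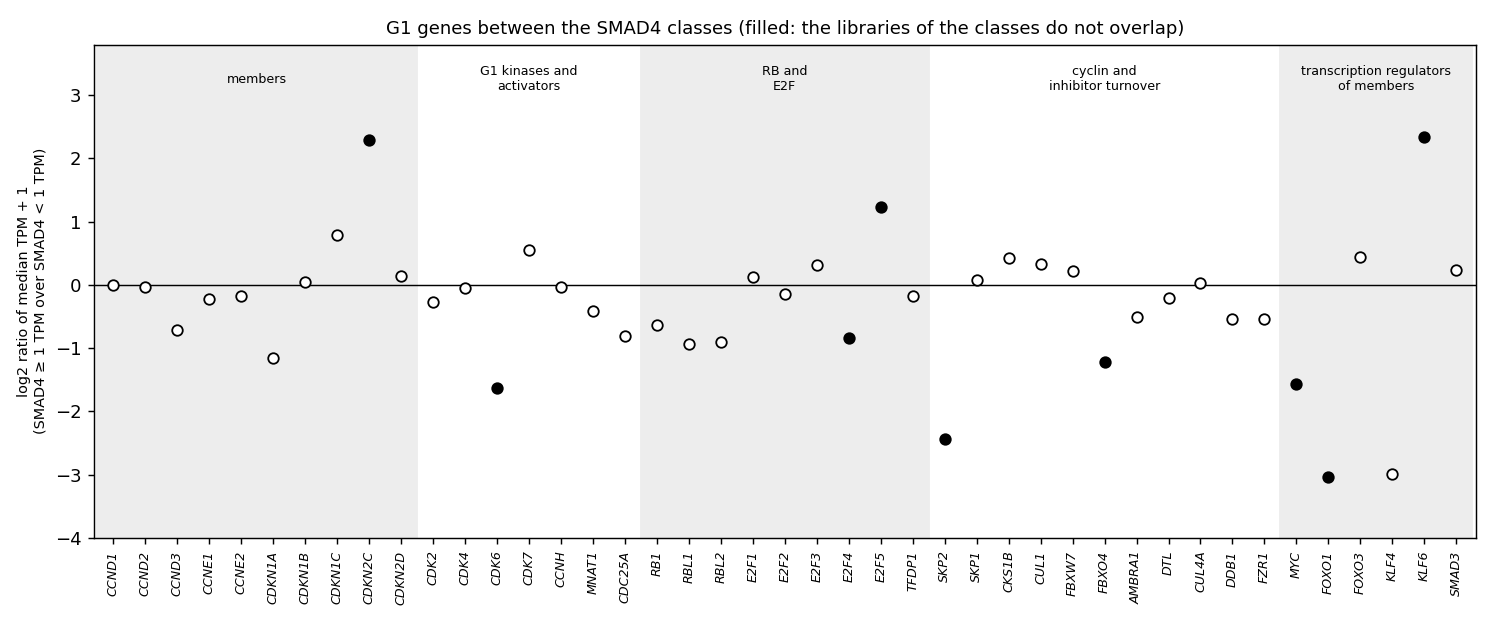
Log2 ratio of the median TPM plus 1 (y axis, SMAD4 of 1 TPM or more over SMAD4 under 1 TPM) for the 10 members and 4 lists of G1 genes (x axis, grey and white bands), with filled points for genes whose libraries do not overlap between the classes. CDKN2C is the only filled point among the 10, and CDK6, E2F4, E2F5, SKP2, FBXO4, MYC, FOXO1 and KLF6 are filled among the others.

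The labels were compared next as given, although SMAD4 went against part of them. A label difference therefore need not be one between the lines. The study's own test compared more resistant with more sensitive clones of a line, not the lines. Each label holds libraries of both SMAD4 classes, so a lack of calls does not show that the lines are alike. No gene differed between the libraries labelled Panc1 and those labelled BxPC3 by edgeR's quasi-likelihood test at a Benjamini-Hochberg adjusted p under 0.05, that is 0.0% of 16008, while 367 had p under 0.05 before adjustment. DESeq2 called 1 gene and limma none, where 346 had p under 0.05 before adjustment. None of the 10 genes was called by any tool run, here or within the classes. Within the class without SMAD4, edgeR called 0.0% of 16124 genes (1840 below 0.05 before adjustment, 36 called by DESeq2). Within the class with SMAD4 it called 0.0% of 15161 (700 below 0.05 before adjustment, 1 called by DESeq2), and the interaction of label and class was called in 0.0% of 16008 (1273 below 0.05 before adjustment, 11 called by DESeq2).

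CCND2 had the largest log2 difference between the labels, Panc1 over BxPC3, at 2.14 with an SE of 0.90, an unadjusted p of 0.0252 and an adjusted p of 1.00 by edgeR. It rested on few libraries. In the class with SMAD4 the difference was 1.85 (SE 0.98, edgeR unadjusted p = 0.0778), and 0.22 without library 9. In the class without SMAD4, 4 of the 5 libraries labelled BxPC3 were at 0 and all 7 labelled Panc1 were above it. The fitted difference there was 2.87 (SE 1.25, edgeR unadjusted p = 0.0378, adjusted p = 0.421), and without library 21 no fold can be given, since the remaining libraries labelled BxPC3 were all at 0.

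CCND3 was lower in the libraries labelled Panc1 within both classes. With SMAD4 the log2 difference was -0.51 (SE 0.16, edgeR unadjusted p = 0.00557, adjusted p = 0.982), and without SMAD4 it was -0.37 (SE 0.24, edgeR unadjusted p = 0.147, adjusted p = 0.563). The other 8 genes had differences of -0.56 to 0.39 within the classes. For CDKN2C the label difference was 0.39 (SE 0.23) without SMAD4 and -0.17 (SE 0.16) with it, and the test of the interaction gave -0.55 (SE 0.28, edgeR unadjusted p = 0.0593, adjusted p = 0.643). No member's difference was called as unlike between the classes.

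Clones of the same SMAD4 class were compared for their spread. On the log2(TPM + 1) scale CDKN1A varied most of the 10, by an SD of 0.78 with a jackknife SE of 0.16 in the 12 libraries without SMAD4 and 0.68 with an SE of 0.19 in the 14 with it. That placed it at percentiles 96.9 and 93.2 of 13791 and 13470 genes with a mean of at least 1 TPM, whose median SD was 0.29 in both. Its highest library exceeded its lowest 5.35-fold in the first class, library 4 over library 3, and 7.89-fold in the second, library 19 over library 20.

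CCND1 and CDKN1B were among the steadier genes. Their SDs were 0.25 and 0.25 without SMAD4 and 0.27 and 0.24 with it, below the median gene. CDKN2C had an SD of 0.43 without SMAD4 and 0.31 with it, at percentiles 78.1 and 57.2. CCND3 stood at 0.40 and 0.37. For CDKN1C the SDs were 0.26 and 0.44. The pseudocount of 1 compresses the spread of CDKN1C and CCND2, and CCND2 had an SD of 0.50 and 0.55 that was 0.24 in the second class without library 9. The order of these 2 genes turned with the scale. CCND2 had SDs of 1.52 and 1.32 with a pseudocount of 0.1, where CDKN1A had 0.79 and 0.70, and SDs of 1.00 and 0.98 on log2(CPM + 1) with TMM factors, where CDKN1A had 0.81 and 0.70.

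**Figure D4:**
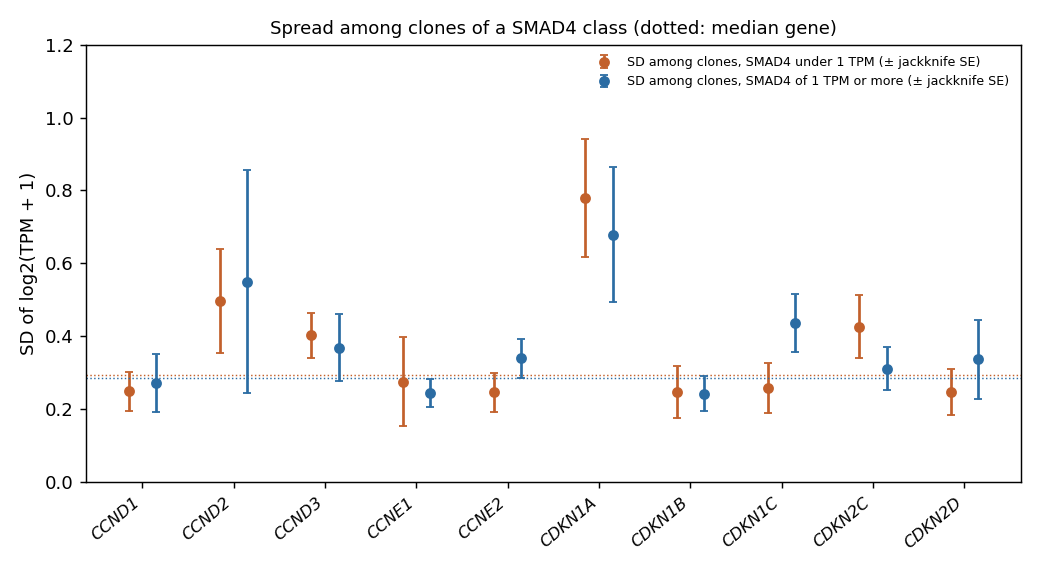
SD of log2(TPM + 1) among clones (y axis) for each of the 10 genes (x axis) in each SMAD4 class, as points with a jackknife SE over libraries, with the median gene of each class as dotted lines. CDKN1A has the highest points, 0.78 and 0.68, on this scale, and CCND2 exceeds it at a pseudocount of 0.1 and on CPM.

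The same clones were compared by a proliferation score, the mean z-score within a class of 12 proliferation genes that include none of the 10. Of 20 relations computed, 8 had an unadjusted permutation p under 0.05, where 19.5% of all genes had one without SMAD4 and 15.3% with it. With p-values adjusted over all genes tested, 0.144% of genes were called without SMAD4 and 2.58% with it. CCNE2 with SMAD4 was the only one of the 20 called. CCND1 without SMAD4 had r = 0.585 (permutation p = 0.0456, 0.246 adjusted over all genes). CCND3 with SMAD4 had r = 0.636 (permutation p = 0.0152, 0.186 adjusted over all genes). Without the 2 libraries farthest from the median score these were 0.501 and 0.252, a step that also narrows the range of scores. CCND2 with SMAD4, close to 0 TPM in most libraries, had r = -0.395 and rho = -0.710 (permutation p = 0.183 and 0.00637).

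CCNE2 followed the score with Pearson's r = 0.880 (permutation p = 3e-05, adjusted over all genes 0.00714) and Spearman's rho = 0.829 (permutation p = 0.000660) in the 14 libraries with SMAD4. Leaving out the 2 libraries farthest from the median score left r = 0.826 (permutation p = 0.000930). In the 12 libraries without SMAD4, r was 0.581 and rho 0.622 (permutation p = 0.0478 and 0.0347, the first 0.251 adjusted over all genes). The difference between the classes was not tested.

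CDKN2C, an inhibitor, was higher in the clones with higher scores. In the 12 libraries without SMAD4, r was 0.875 and rho 0.888 (permutation p = 0.000270 and 0.000280), and r was 0.789 (permutation p = 0.00703) without the 2 farthest libraries, but the p adjusted over all genes was 0.0743. In the 14 with SMAD4, r was 0.710 and rho 0.618 (permutation p = 0.00422 and 0.0213, the first 0.0907 adjusted over all genes). It was 0.456 (permutation p = 0.137) without libraries 14 and 22, which had the lowest and highest scores. Leaving out both ends narrows the range of scores and can lower r by itself. Whether the relation rests on those 2 libraries was therefore not settled. CDKN1B had r = 0.829 and rho = 0.804 without SMAD4 (permutation p = 0.000630 and 0.00301, the first 0.0860 adjusted over all genes, r = 0.787 without the 2 farthest). With SMAD4 its r was -0.255 and rho -0.200 (permutation p = 0.379 and 0.493), and the difference between the classes was not tested.

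CDKN1A ran the other way. Its r was -0.594 and rho -0.664 without SMAD4 (permutation p = 0.0430 and 0.0222, the first 0.240 adjusted over all genes). With SMAD4 they were -0.347 and -0.477 (permutation p = 0.220 and 0.0874, the first 0.598 adjusted over all genes). Without the 2 farthest libraries the r without SMAD4 was -0.367 (permutation p = 0.298), though that step also narrows the range of scores. Against the S phase genes of the list alone r was -0.817 over all 12, with no p adjusted over all genes. Its r against the other genes of the list is not given here. Library 3 had the highest score of its class, the lowest CDKN1A at 22.4 TPM and the highest CDKN2C at 17.95 TPM. Libraries 1 and 4 had the lowest scores, 105 and 120 TPM of CDKN1A and the lowest CDKN2C at 6.07 and 6.77 TPM. All 3 are labelled Panc1. The growth of each clone was not analysed here.

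**Figure D5:**
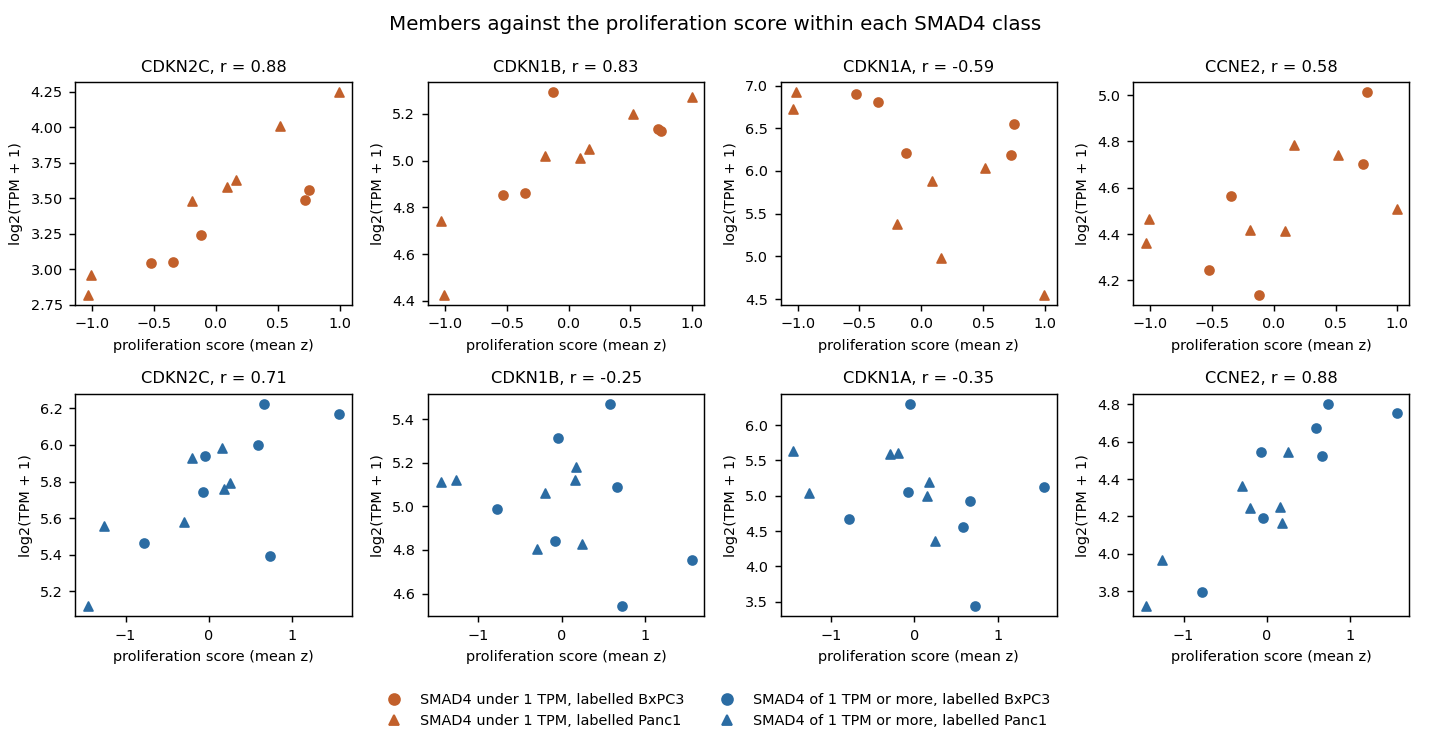
Log2(TPM + 1) of CDKN2C, CDKN1B, CDKN1A and CCNE2 (y axes) against the proliferation score (x axes, mean z within the class), with the 12 libraries with SMAD4 under 1 TPM above and the 14 others below. CCNE2 with SMAD4 (r = 0.880) is the only panel past the threshold after adjustment over all genes.

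Between the 10 genes themselves, 90 relations were computed, 45 pairs in each class. Of these, 11 had an unadjusted permutation p under 0.05, and 0 passed after Benjamini-Hochberg adjustment over the 90. The share over all pairs of genes was not computed, so whether 11 of 90 is many or few cannot be told. The pairs below are given as values only. CDKN1A and CDKN2C without SMAD4 had r = -0.794 and rho = -0.832 (permutation p = 0.00187 and 0.00132), and r = -0.683 (permutation p = 0.0289) without the 2 libraries farthest in CDKN1A. CCND2 and CDKN1A had r = -0.836 and rho = -0.569 (permutation p = 0.00145 and 0.0569). Without 2 libraries r moved to -0.456 (permutation p = 0.190), a step that also narrows the range of values.

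For each of the 10 genes, the gene most like it was taken as that with the highest mean of both classes' r among 9707 genes with a mean of at least 5 TPM in each class. These are picks from many genes and carry no p. For CDKN2C it was FAM83D, with r = 0.931 over 12 libraries and 0.856 over 14, and for CCNE2 it was SHCBP1, with 0.806 and 0.867. For CDKN1B it was PDS5A, with 0.846 and 0.850, and for CDKN1A it was NFKBIA, with 0.787 and 0.823. For CCND1 it was RAB23 (0.688 and 0.779), for CCND3 ACOT7 (0.910 and 0.678) and for CCNE1 MMD (0.786 and 0.787). CCND2, CDKN1C and CDKN2D had weaker best matches, in CHCHD5, AKR1B1 and DCTN3, with mean r of 0.709, 0.645 and 0.713.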

How the data were processed

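The authors sequenced polyadenylated, strand-specific libraries and assigned reads to human transcripts (Ensembl, GRCh38) with kallisto 0.46.1. The table they deposited holds, for each gene and library, TPM, estimated counts that tximport derived from TPM with its length-scaled option, effective length in bases, and 30 further columns of counts from resampled reads, which were not used, so the clone spread is not set against quantification error. Columns of other samples numbered 0. Gene symbols and positions came from GENCODE 44 for 36315 of 41078 genes. Totals were 27035724 to 34945608 estimated counts, with a median of 29623513, and limit genes of few counts by counting error. No pair of the 325 pairs of libraries differed by as little as sampling noise (smallest chi-square per gene 41.9).

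The members and lists were chosen with earlier results of these data known. Groups came from the labels, and SMAD4 at 1 TPM split the classes. Estimated counts were rounded for edgeR 4.0.16 (filterByExpr, TMM, quasi-likelihood test, Benjamini-Hochberg adjustment over all genes tested, threshold 0.05), with DESeq2 1.42.0 and limma 3.58.1 as alternatives, in R 4.3.3. Python 3.11.15, numpy 2.4.6, pandas 2.3.3 and scipy 1.17.1 were used for levels, overlap, spread on log2(TPM + 1) and correlations with 100000 two-sided permutations. Named genes were the 10 members, SMAD4, CDKN2A, genes of the fixed lists, and for each member the 1 gene most like it. One list of genes is not reported here. Steps were tested on simulated data. Other alternatives were other scaling, filters, pseudocounts, score lists, a class covariate, labels taken singly, and leaving out each library in turn.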

Additional observations from a re-analysis of the deposited data

Results flagged for a closer look

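Within each label and SMAD4 class, 40 groups of 5 or 7 libraries were searched for a library far from the rest by Dixon's test on log2(TPM + 1), and 5 had one. Chance gives about 1 in 20 such groups. CCND1 was at 107.2 TPM in library 18 (labelled BxPC3, with SMAD4), where the other 6 were at 165 to 207 TPM. CCND2 was at 0.424 TPM in library 21 (labelled BxPC3, without SMAD4), where the other 4 were at 0. With those 4 equal, any value above 0 in library 21 would have been flagged. The rate of 1 in 20 does not hold for that group. CCND2 was at 3.399 TPM in library 9 (labelled Panc1, with SMAD4), with the others at 0.0528 to 0.748 TPM. CCND3 was at 50.23 TPM in library 22 (labelled BxPC3, with SMAD4), with the others at 29.1 to 34.1 TPM. CCNE1 was at 46.65 TPM in library 4 (labelled Panc1, without SMAD4), with the others at 23.02 to 26.1 TPM. Each is a single library of a single clone, and no second library of these clones was analysed here. No member's label difference was called as unlike between the SMAD4 classes.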

How the results depend on the processing

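CDKN2C was the only member that did not overlap between the classes also with CPM in place of TPM, with or without TMM factors. Within libraries labelled Panc1, 2 members did not overlap (CCND3 and CDKN2C), against 1 over all libraries. CDKN2C could not overlap within a label, since it did not over all libraries. Calls between the labels went from 0 with edgeR to 1 with DESeq2 over all libraries, 36 without SMAD4, 1 with SMAD4 and 11 for the interaction, and the cause was not tested. With each library left out edgeR made 0 to 0 calls in each label comparison. The median SD over members went from 0.27 to 0.35 without SMAD4 at a pseudocount of 0.1, and from 0.34 to 0.25 with SMAD4 at a pseudocount of 5, which raise and lower the spread of low values by construction. Of the 20 relations with the proliferation score, 4 passed when adjusted over the 20 as planned and 1 when adjusted over all genes, a choice made after seeing the data, as was leaving CCNA2 out of the score, which changed no call.

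Some signs turned. The label difference was -0.014 for CDKN1C with limma and 0.070 for CDKN2C with SMAD4 class as a covariate. Without the 2 farthest libraries r went from 0.341 to -0.115 for CCND2 without SMAD4, and from 0.228 to -0.0387 for CCND1 and 0.431 to -0.167 for CDKN2D with it, none of which had passed. With the score split into S phase and other genes, r was -0.0244 for CCND2 and 0.0894 for CDKN1C without SMAD4 (other genes), and 0.0672 for CDKN1C with it (S phase genes). CDKN1A without SMAD4 reached -0.817 on the S phase genes, CDKN1B went to 0.614 on them, and CDKN2C to 0.613 on the other genes. For each of these, r on the remaining part of the score is not given here. Leaving out each library in turn, label differences ranged over all libraries from -0.034 to 0.041 for CCND1, -0.032 to 0.15 for CCNE1, -0.050 to 0.027 for CDKN1B and -0.13 to 0.23 for CDKN1C. Without SMAD4 they ranged from -0.048 to 0.13 for CCND1, -0.20 to 0.093 for CCNE1, -0.11 to 0.15 for CCNE2, -0.090 to 0.025 for CDKN1B and -0.042 to 0.23 for CDKN2D, and with SMAD4 from -0.100 to 0.041 for CCND1 and -0.051 to 0.087 for CDKN1B.

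No paired analysis was possible because each library number occurs once and no number is shared between the labels. Depth limits CCND2 and CDKN1C, and intervals and floors cover counting error only.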
